A study of Mus musculus with 2 samples.

Results

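The 10 genes described here encode the chains of complement C1q (C1qa, C1qb, C1qc), the central complement protein C3, and proteins of macrophage lipid handling (Apoe, Trem2, Gpnmb, Fabp5, Lpl, Cd36). They were chosen by symbol, and all 10 were found among the 55357 features listed in both matrices. The tumours grew from RM-1 cells, a line derived from mouse prostate cancer, placed under the skin of C57BL/6 mice, and both arms carry the genotype label WT. One arm received RP-6306, an inhibitor of the CDK1-restraining kinase PKMYT1, and the other received vehicle. Tumours were taken on day 10 of treatment and profiled by droplet single-cell RNA sequencing, with 1 library per arm. The number of mice behind each library is not given clearly in the labels. The series addressed whether blocking PKMYT1 changes the tumours and the immune cells within them.

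C1q recognises antibody-coated surfaces and dying cells and starts the classical complement pathway. Unlike most complement proteins, which come from the liver, it is made mainly by tissue macrophages and dendritic cells. Apolipoprotein E carries cholesterol out of macrophages, and TREM2 is a lipid-sensing receptor of macrophages and microglia that signals through the adaptor encoded by Tyrobp. Together with GPNMB, FABP5, LPL and CD36, these proteins are often used as a signature of lipid-laden tumour macrophages.

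The genes were followed in Lyz2-positive cells, which had at least 3 UMIs (unique transcript molecules) of the myeloid lysozyme gene Lyz2 and at most 3 UMIs of the keratins Krt8 and Krt18 together. There were 398 such cells in the RP-6306 library (3.86% of 10308 retained cells) and 382 in the vehicle library (4.004% of 9540). Their median depths were 3880 and 4367 UMIs. All 8 macrophage markers that are not members (Adgre1, Csf1r, Cd68, Fcgr1, Mrc1, Itgam, Cd14, Mertk) were found, with a summed level of 2203 CPM (UMIs relative to all UMIs of the same cells, on the usual CPM scale) in RP-6306 and 2240 CPM in vehicle cells. B cell markers were at 0, and T cell markers summed to 7.35 and 3.72 CPM. The population also held monocytes. Cells with at least 3 UMIs of Ly6c2 and Plac8, called classical-monocyte-gated below, were 35.9% of the RP-6306 cells (143 cells, interval 31.2 to 40.9%) and 26.7% of the vehicle cells (102 cells, 22.3 to 31.4%). Neutrophil-gated cells numbered 6 and 1, dendritic-gated cells 0 and 1, and nonclassical-monocyte-gated cells 12 and 13. The remaining 237 RP-6306 and 265 vehicle cells are called the remainder below. Monocyte markers, which include the gate genes, summed to 441 and 485 CPM in RP-6306 and vehicle nonclassical-monocyte-gated cells. They summed to 280 and 352 CPM in the remainder and to 3464 and 3102 CPM in classical-monocyte-gated cells. C1q levels of the nonclassical-monocyte-gated cells, given below, were near those of the remainder, so their name states the gate and not a settled cell type. The macrophage markers summed to 2454 CPM in the remainder and 1756 CPM in classical-monocyte-gated cells of the RP-6306 library, and to 2335 and 2026 CPM in the vehicle library. Neutrophil markers summed to 1375 CPM in RP-6306 and 43.1 CPM in vehicle Lyz2-positive cells, and fibroblast markers to 136 and 292 CPM. The libraries shared 34 cell barcodes, of which 2 RP-6306 and 1 vehicle barcodes were Lyz2-positive, and none was Lyz2-positive in both. With 1 library per arm, no spread between animals was available and no test was made. All intervals are 95% intervals for counting error only, and higher or lower compares the libraries.

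The C1q chains sit side by side on chromosome 4 of the mouse genome (GRCm38), all on the minus strand, within 18675 bp. C1qb spans chr4:136880129-136886187, C1qc spans chr4:136889804-136893065 and C1qa spans chr4:136895917-136898803. Apoe lies at chr7:19696109-19699188, Trem2 at chr17:48346401-48354147 and C3 at chr17:57203970-57228136. Gpnmb lies at chr6:49036546-49070929, Fabp5 at chr3:10012548-10016607, Lpl at chr8:68880491-68907448 and Cd36 at chr5:17781690-17888801. All 10 are protein-coding.

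The RefSeq promoter table (GRCm38.p6) holds 7 of the 10 genes. The 250 bases before the start are shown for the C1q chains in the table and for Apoe and Trem2, because transcripts of these genes were found in the same cells. Capitals mark GAGGAA, the core recognised by the myeloid factor PU.1, on either strand (TTCCTC on the other). In Trem2 they also mark TGAATCA, which does not overlap that core. It matches the AP-1 motif as searched here, TGANTCA, where N is any base. The windows are chr4:136886201-136886450 (minus), chr4:136892915-136893164 (minus), chr7:19699189-19699438 (minus, the outermost of 3 Apoe starts) and chr17:48346151-48346400 (plus).
C1qb: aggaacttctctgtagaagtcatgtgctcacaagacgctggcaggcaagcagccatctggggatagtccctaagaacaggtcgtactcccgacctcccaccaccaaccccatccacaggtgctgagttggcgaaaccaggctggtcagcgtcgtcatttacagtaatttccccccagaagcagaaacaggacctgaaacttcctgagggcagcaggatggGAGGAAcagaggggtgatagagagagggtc
C1qc: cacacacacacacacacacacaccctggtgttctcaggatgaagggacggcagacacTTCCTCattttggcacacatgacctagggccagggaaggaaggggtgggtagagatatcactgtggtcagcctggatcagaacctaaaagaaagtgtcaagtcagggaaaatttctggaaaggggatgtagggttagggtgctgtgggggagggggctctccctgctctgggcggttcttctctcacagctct
Apoe: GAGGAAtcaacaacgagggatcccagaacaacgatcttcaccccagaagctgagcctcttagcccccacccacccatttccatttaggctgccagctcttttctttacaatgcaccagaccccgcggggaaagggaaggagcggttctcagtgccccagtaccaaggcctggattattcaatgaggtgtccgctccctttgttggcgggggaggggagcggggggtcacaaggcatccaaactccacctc
Trem2: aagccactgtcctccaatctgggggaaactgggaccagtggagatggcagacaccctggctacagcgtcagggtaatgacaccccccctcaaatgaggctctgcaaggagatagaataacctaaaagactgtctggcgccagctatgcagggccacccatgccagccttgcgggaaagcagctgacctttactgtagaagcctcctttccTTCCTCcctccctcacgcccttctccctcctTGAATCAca

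The PU.1 core was found in 5 of the 9 windows of members and not in those of C3, Gpnmb, Cd36 and the second Apoe start. It began 30 bases before the C1qb start on the coding strand. It stood between 193 and 188 bases before the C1qc start and between 40 and 35 bases before the Trem2 start, in both on the opposite strand, and began at 250 bases before the Apoe start. Among 32851 promoter windows of the same length, 23.3% held this core and 6.75% held the AP-1 motif. The E-box CACGTG (6.02% of all windows) and the core of the interferon-stimulated response element (2.98%) were searched on both strands and had no match in any of the 9 windows of members. The RefSeq window of C1qc (136892915 to 136893164) lies partly inside the gene span given above (136889804 to 136893065). The annotations thus differ in where C1qc starts. A match is a run of letters and not a measured binding site.

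C1qa, C1qb and C1qc were among the abundant transcripts of Lyz2-positive cells. C1qa stood at 2509 CPM (4440 UMIs, interval 2436 to 2584) in RP-6306 and 2268 CPM (4264 UMIs, 2201 to 2337) in vehicle cells. C1qb stood at 1815 CPM (3212 UMIs) and 1787 CPM (3360 UMIs). C1qc stood at 2230.3 CPM (3947 UMIs) and 2029.9 CPM (3816 UMIs). The chains kept similar proportions: C1qa, C1qb and C1qc made up 38.3%, 27.7% and 34.0% of C1q UMIs in RP-6306 cells and 37.3%, 29.4% and 33.4% in vehicle cells. UMIs at transcript 3' ends do not scale with transcript length, though capture may differ between genes. Among cells with at least 10 C1q UMIs (218 and 213 cells), the middle 50% of cells held C1qa shares of 32.4 to 44.8% and 30.8 to 42.6%.

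Expression of C1q was uneven between cells. With each cell thinned to 1500 UMIs (384 and 370 cells, after leaving out 14 and 12 shallower ones), all 3 chains were found in 50.5% of RP-6306 cells (194 cells, 45.4 to 55.6%) and 49.2% of vehicle cells (182 cells, 44.0 to 54.4%). No chain was found in 33.9% and 35.9%. Only 1 or 2 chains were seen in 27 and 33 RP-6306 cells and in 15 and 40 vehicle cells. Most cells therefore showed either all 3 chains or none at this depth. Across Lyz2-positive cells the log-normalized levels of the chains had Pearson r of 0.92 to 0.93 in the RP-6306 and 0.91 to 0.93 in the vehicle library. Cells of a library share its free RNA and differ in depth, so these values describe the libraries and carry no p-value.

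Apoe had the most UMIs of any single member within Lyz2-positive cells. It stood at 3453 CPM (6110 UMIs, 3367 to 3540.3) in RP-6306 and 2799 CPM (5262 UMIs, 2724 to 2876) in vehicle cells. The 10% of cells with the most Apoe held 47.5% of its UMIs in the RP-6306 and 47.1% in the vehicle library, and 1 cell each held 142 and 119. Apoe followed C1q: at 1500 UMIs per cell, 82.4% of RP-6306 cells with a C1qa UMI also had Apoe (187 of 227, 76.8 to 87.1%), against 22.3% of those without (35 of 157). In the vehicle library these shares were 80.0% (172 of 215, 74.0 to 85.1%) and 18.7% (29 of 155). Pearson r between Apoe and the single chains was 0.70 to 0.75 in the RP-6306 and 0.72 to 0.75 in the vehicle library.

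**Figure D1:**
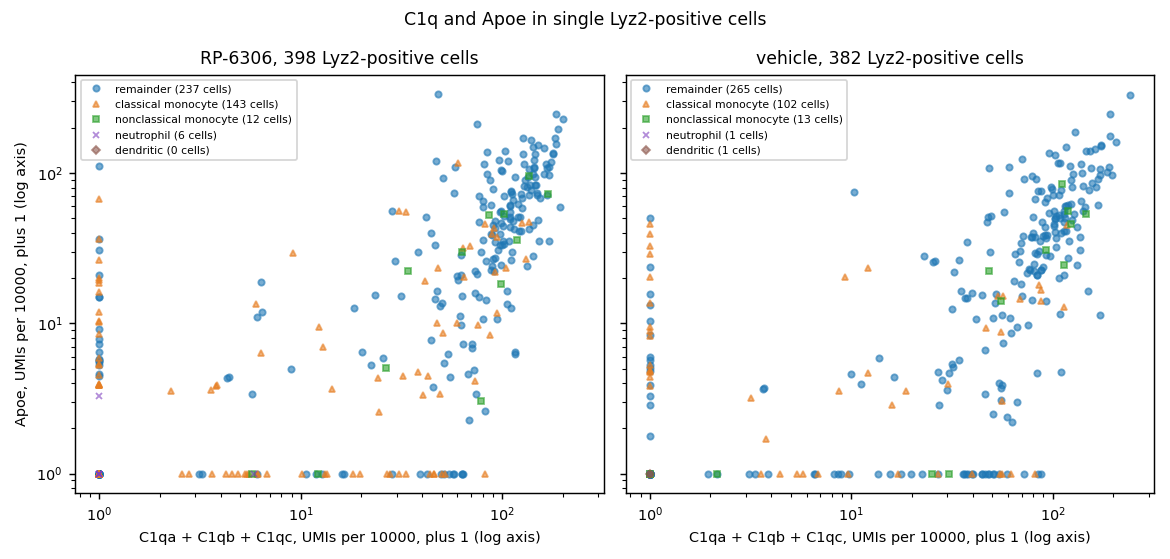
Each point is 1 Lyz2-positive cell of the RP-6306 library (left, 398 cells) or the vehicle library (right, 382 cells), with the summed C1q level on the x axis and Apoe on the y axis, both in UMIs per 10000 plus 1 on log axes and coloured by gated subset. In both libraries remainder cells fill the corner high in both, while many classical-monocyte-gated cells lie on the axes, where 1 of the measures is 0.

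Trem2 was lower in level and found in fewer cells. It stood at 110 CPM (194 UMIs, 94.7 to 126) in RP-6306 and 126 CPM (236 UMIs, 110.0 to 143) in vehicle cells, with a UMI in 116 of 398 and 134 of 382 cells. At 1500 UMIs it was found in 34 of 227 RP-6306 cells with C1qa (interval 10.6 to 20.3%) and 3.18% of those without, and in 43 of 215 vehicle cells with C1qa (14.9 to 26.0%) and 4.52% of those without. Its correlation with the C1q chains was 0.35 to 0.38 in RP-6306 and 0.42 to 0.44 in vehicle cells. Tyrobp, the adaptor that TREM2 signals through, was at 1574 and 1524 CPM.

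Gpnmb, a lysosomal glycoprotein gene often listed beside Trem2, was almost not detected in Lyz2-positive cells. It had 5 UMIs in 5 RP-6306 cells and 11 UMIs in 5 vehicle cells, with 7 UMIs in 1 vehicle cell. The levels were 2.83 and 5.85 CPM, about those of tumour-gated cells (3.92 and 4.06 CPM). Spp1, which encodes osteopontin and is often named beside it, stood at 1148 CPM in RP-6306 and 1274 CPM in vehicle cells.

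Fabp5, a cytosolic fatty acid carrier, was abundant and was also frequent in cells without C1q. It stood at 1749 CPM (3095 UMIs, 1688 to 1812) in RP-6306 and 1929 CPM (3627 UMIs, 1867 to 1993) in vehicle cells. At 1500 UMIs it was found in 62.6% of RP-6306 cells with C1qa (142 of 227, 55.9 to 68.9%) and 51.0% of those without (80 of 157, 42.9 to 59.0%), and these intervals overlap. In vehicle cells the shares were 74.9% (161 of 215, 68.5 to 80.5%) and 54.2% (84 of 155, 46.0 to 62.2%). Pearson r between Fabp5 and the chains was 0.25 to 0.26 in RP-6306 cells and 0.40 to 0.43 in vehicle cells, the second range close to that of Trem2. Reads shared with its near copies, such as the listed gene Fabp5l2, may be lost in counting.

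Lpl, the enzyme that frees fatty acids from triglycerides in lipoproteins, was carried by few cells. It had 72 UMIs in 40 RP-6306 cells (40.7 CPM, 31.8 to 51.2) and 171 UMIs in 64 vehicle cells (91.0 CPM, 77.8 to 106). Cd36, a scavenger receptor for fatty acids and oxidized lipoproteins, had 10 UMIs in 3 RP-6306 cells and 17 UMIs in 11 vehicle cells. C3 had 44 UMIs in 29 RP-6306 cells (24.9 CPM) and 33 UMIs in 28 vehicle cells (17.6 CPM). At 1500 UMIs C3 was found in 2.64% of RP-6306 cells with C1qa and 6.37% of those without, and in 2.33% and 3.87% of vehicle cells, with overlapping intervals (6 and 10, and 5 and 6 cells).

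**Figure D2:**
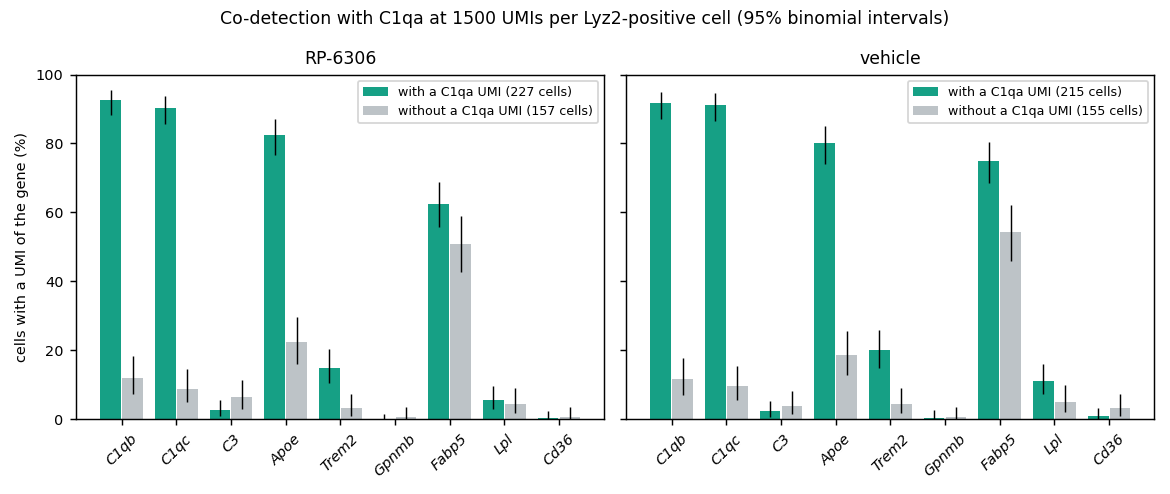
Bars give the percentage of Lyz2-positive cells with a UMI of each member among cells with (green) and without (grey) a C1qa UMI, each cell thinned to 1500 UMIs, in the RP-6306 (left) and vehicle (right) libraries; error bars are 95% binomial intervals. C1qb, C1qc and Apoe separate widely, Trem2 by less in share of cells, and Fabp5 is frequent on both sides.

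The members also differed between subsets of Lyz2-positive cells. In the RP-6306 library summed C1q stood at 8387 CPM in the remainder and 2532 CPM in classical-monocyte-gated cells, and in the vehicle library at 7195 and 1677 CPM. Apoe showed the same order, at 4648 and 953 CPM in the RP-6306 library and 3451 and 500.4 CPM in the vehicle library. Trem2 stood at 142 and 43.8 CPM in RP-6306 and at 147 and 40.6 CPM in vehicle cells. Fabp5 differed less, at 2024 and 1144 CPM in RP-6306 and at 2207 and 1101 CPM in vehicle cells. C3 went the other way in the RP-6306 library (13.9 CPM in the remainder and 43.8 CPM in classical-monocyte-gated cells), and the intervals of the vehicle values, 15.7 and 21.6 CPM, overlapped.

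At 1500 UMIs per cell, cells with a UMI of Folr2, a marker of resident-like macrophages, had more Apoe than cells without one, at 8431 against 2650.3 CPM in RP-6306 (17 and 367 cells) and 8293 against 2240 CPM in vehicle cells (25 and 345 cells). Their summed C1q was 2.46 times as high (2.18 to 2.77) in RP-6306 and 2.64 times (2.39 to 2.92) in vehicle cells. Arg1-positive cells, which break down arginine, had more Fabp5 than the rest, by 2.33 times (2.01 to 2.68) in RP-6306 and 1.68 times (1.48 to 1.92) in vehicle cells, and more Trem2, by 2.32 (1.14 to 4.47) and 2.102 times (1.20 to 3.64). Cells at or above the median of the MHC class II genes Cd74, H2-Ab1 and H2-Aa had 1.61 times (1.49 to 1.73) and 1.19 times (1.11 to 1.28) the summed C1q of the others. Cells with a UMI of Mrc1, the mannose receptor gene (94 RP-6306 and 95 vehicle cells), had 4.20 times (3.81 to 4.63) and 3.16 times (2.85 to 3.504) the Apoe and 2.63 times (2.44 to 2.83) and 2.44 times (2.26 to 2.62) the summed C1q of the others. Higher Fabp5 and Trem2 were not particular to Arg1-positive cells. Mrc1-positive cells had 1.98 times (1.73 to 2.26) and 1.78 times (1.56 to 2.02) the Fabp5 of the others. Their Trem2 was 2.59 times (1.38 to 4.82) and 2.44 times (1.41 to 4.21) as high. Folr2-positive cells had 1.60 times (1.22 to 2.07) and 1.67 times (1.35 to 2.04) the Fabp5. For Apoe the split by MHC class II gave 1.17 times (1.06 to 1.29) in RP-6306 and 0.892 times (0.804 to 0.989) in vehicle cells.

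Genes whose levels followed the members across cells were searched over 4686 genes, ranked by the lower of the 2 libraries' Pearson r. For summed C1q these were Cd81, a tetraspanin (r 0.68 in both libraries), Mrc1 (0.60 and 0.62), the chemokine genes Ccl12 (0.58 and 0.60) and Pf4 (0.57 and 0.58), and Lgmn, a lysosomal protease gene (0.52 and 0.57). Apoe was followed by Pf4 (0.64 and 0.67), Ccl12 (0.62 and 0.62) and Selenop, which encodes a selenium carrier (0.61 and 0.69). Trem2 was followed by Pf4 (0.40 and 0.40), Mrc1 (0.40 and 0.38) and Lgmn (0.37 and 0.37). Fabp5 was followed by Pf4 (0.34 and 0.45), Lgmn (0.31 and 0.31) and Ccl12 (0.30 and 0.43). Lpl had 1 such gene, Slamf9 (0.20 and 0.22), and Gpnmb, Cd36 and C3 had none at r of 0.2 or more. These sparse values describe cells that share a library.

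Between the libraries, most members differed little in Lyz2-positive cells. Of the 8 members with at least 50 UMIs over both libraries, 0 were higher and 1 was lower by 1.5-fold or more in the RP-6306 library. Among all 6978 genes with as many UMIs, 3.43% were higher and 3.8% lower by that much, 7.22% together. The median log2 ratio of the 8 members was 0.08, beside -0.02 over all these genes. The median of the members turned to -0.024 with every cell thinned to 1500 UMIs.

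The exception was Lpl, with 40.7 CPM in RP-6306 and 91.0 CPM in vehicle cells, a ratio of 0.447 (0.335 to 0.592) and a log2 ratio of -1.16. No single cell made this difference: the cell with the most Lpl held 5 of 72 UMIs in RP-6306 and 13 of 171 in vehicle cells, and the log2 ratio was -1.15 without these cells. It was -1.02 in the remainder, at 52.3 CPM (60 UMIs) and 106 CPM (148 UMIs). In classical-monocyte-gated cells 9 and 8 UMIs were too few for a comparison. At 1500 UMIs, Lpl was found in 5.21% of RP-6306 cells (3.21 to 7.93%) and 8.65% of vehicle cells (5.99 to 12.0%), which overlap.

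Apoe was higher in the RP-6306 library, by a ratio of 1.23 (1.19 to 1.28, log2 0.30). This held in the remainder, at 4648 and 3451 CPM (log2 0.43), and in classical-monocyte-gated cells, at 953 and 500.4 CPM, where it was largest (ratio 1.90, interval 1.61 to 2.27, log2 0.93). With equal weight for each cell at 1500 UMIs the log2 ratio of Apoe was 0.13 in all Lyz2-positive cells, 0.31 in the remainder and 0.84 in classical-monocyte-gated cells. A UMI of Apoe was found in 61 of 143 RP-6306 and 35 of 102 vehicle classical-monocyte-gated cells. The intervals of these shares overlap (34.4 to 51.2% and 25.2 to 44.4%). The leading 2 cells held 64 and 56 of 500 UMIs in RP-6306 and 28 and 21 of 185 in vehicle. Fibroblast markers in the classical-monocyte-gated cells summed to 214 CPM in RP-6306 and 833 CPM in vehicle cells. Their part in these differences in Apoe was not tested.

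Summed C1q stood at 6554 CPM in RP-6306 and 6086 CPM in vehicle cells, a ratio of 1.08 (1.049 to 1.105, log2 0.11). The log2 ratio was 0.22 in the remainder (8387 and 7195 CPM) and 0.59 in classical-monocyte-gated cells (2532 and 1677 CPM), both above that over all cells. In the 12 and 13 nonclassical-monocyte-gated cells it was 0.086 (7915 and 7459 CPM), with an interval of -0.068 to 0.24. Classical-monocyte-gated cells, low in C1q in both libraries, made up 35.9% of RP-6306 and 26.7% of vehicle Lyz2-positive cells. Thinned to 1500 UMIs, the log2 ratios were -0.011 over all cells, 0.23 in the remainder and 0.66 in classical-monocyte-gated cells. By chain, C1qa (log2 0.15) and C1qc (0.14) were higher over all cells, while the interval of C1qb (ratio 1.02, 0.967 to 1.07) included 1. Thinned to 1500 UMIs, C1qb (-0.040) and C1qc (-0.0084) had the other sign.

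Fabp5 was slightly lower in the RP-6306 library, by a ratio of 0.906 (0.864 to 0.951), and its share of cells at 1500 UMIs was 57.8% against 66.2%, with intervals that overlap (52.7 to 62.8% and 61.1 to 71.0%). Its ratio was 0.917 (0.869 to 0.968) in the remainder, 1.04 (0.915 to 1.18) in classical-monocyte-gated cells and 1.52 (1.20 to 1.93) in the 12 and 13 nonclassical-monocyte-gated cells, where it stood at 1985 CPM in RP-6306 and 1306 CPM in vehicle cells. For Trem2 (ratio 0.873, 0.718 to 1.06) and C3 (1.42, 0.882 to 2.30) the intervals included 1. Gpnmb and Cd36 had too few UMIs for a comparison.

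**Figure D3:**
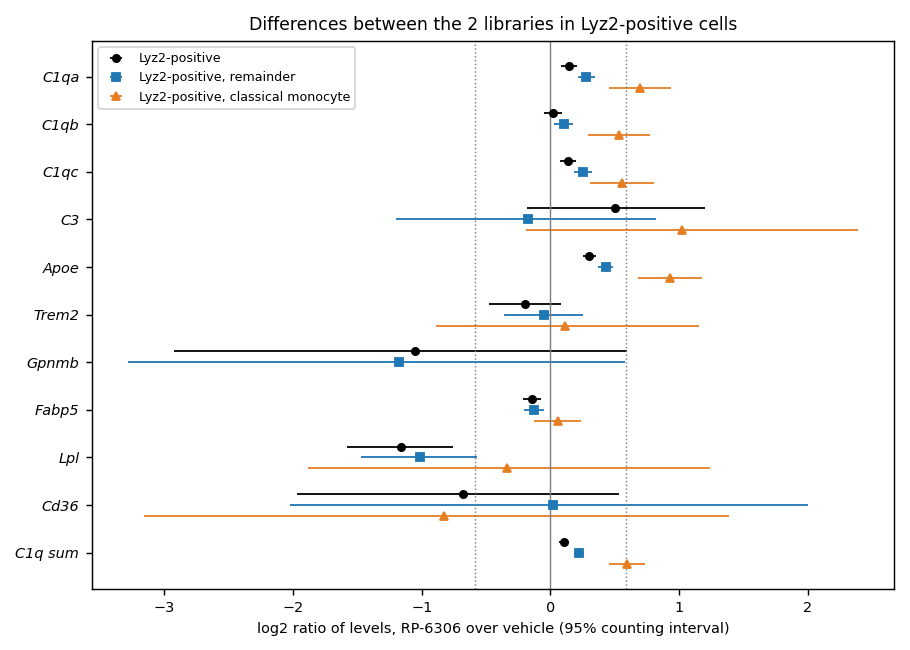
Points give the log2 ratio of RP-6306 over vehicle levels for each member and for summed C1q in all Lyz2-positive cells (black), the remainder (blue) and classical-monocyte-gated cells (orange), with 95% counting intervals; dotted lines mark 1.5-fold. Lpl lies left of the line in all Lyz2-positive cells, and Apoe and summed C1q lie further right in classical-monocyte-gated cells than in the remainder.

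Related genes were counted by the same limits, beside the 3.43% of all genes that were higher and 3.8% lower by 1.5-fold, and the median log2 ratio of -0.02 over all genes. Of 28 other complement genes, 8 had at least 50 UMIs in Lyz2-positive cells, 1 of them higher by 1.5-fold (Cr1l, a complement regulator, 40.1 and 26.6 CPM) and 0 lower, with a median log2 ratio of -0.05. The most abundant were Itgam, a subunit of complement receptor CR3 (399 and 525 CPM), the C5a receptor gene C5ar1 (306 and 254 CPM) and properdin, Cfp (217 and 259 CPM). Of 31 lipid handling genes, 22 were measured at that depth, 3 were higher by 1.5-fold and 0 lower, with a median of 0.03. They were Plin2, which coats lipid droplets, at 545 CPM (965 UMIs) in RP-6306 and 320.2 CPM (602 UMIs) in vehicle cells (ratio 1.70, 1.54 to 1.89), the cholesterol exporter gene Abca1 (31.6 and 18.6 CPM) and Angptl4, an inhibitor of LPL (24.3 and 11.7 CPM). Cr1l, Abca1 and Angptl4 were under the limit of 50 CPM for naming and are given after their values were seen. Of 29 genes of the TREM2 pathway and the lysosome, 28 were measured and 0 passed 1.5-fold in either direction, with a median of 0.06. Their most abundant members were the protease gene Ctsb (1780.0 and 1594 CPM), Tyrobp and Spp1.

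Outside Lyz2-positive cells the members split by cell type. C1q, Apoe and Trem2 stood highest in Lyz2-positive cells. Summed C1q reached at most 29.0 CPM and Apoe at most 38.5 CPM in the other gates, both in T-gated cells on 2 UMIs. Trem2 had 0 UMIs in the 40 RP-6306 and 27 vehicle T-gated cells, with intervals reaching up to 53.5 and 71.0 CPM. Lpl stood at 102 CPM in fibroblast-gated cells of both libraries (72 and 48 UMIs, 98 and 69 cells), above its level in Lyz2-positive cells of the RP-6306 library (40.7 CPM) and within the interval of the vehicle value (91.0 CPM). Cd36 was highest in endothelial-gated cells, at 52.5 CPM in RP-6306 (24 UMIs, 8 of 56 cells) and 228 CPM in vehicle (91 UMIs, 20 of 52 cells). Its ratio there was 0.230 (0.140 to 0.364), and without the 2 cells with the most Cd36 in each library the log2 ratio was -2.41, beside -2.12 with them. Fabp5 was lower in the same cells, at 252 CPM (115 UMIs) in RP-6306 and 607 CPM (242 UMIs) in vehicle. The Fabp5 ratio was 0.415 (0.329 to 0.520). The endothelial-gated cells also differed in their markers. Endothelial markers summed to 1453 CPM in RP-6306 and 2778 CPM in vehicle, and fibroblast markers to 1485 and 629 CPM. The part of this in the Cd36 and Fabp5 differences was not tested.

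C3 was highest in fibroblast-gated cells, at 235 CPM in RP-6306 (166 UMIs, 27 of 98 cells) and 36.0 CPM in vehicle (17 UMIs, 9 of 69 cells). The ratio was 6.52 (3.95 to 11.5). UMIs clumped by cell, with 32 and 19 in the leading 2 RP-6306 cells and 4 and 4 in the leading 2 vehicle cells, so the interval is too narrow. Without these cells the log2 ratio was 3.09, against 2.70 with them. The cells left out held a larger part of the 17 vehicle UMIs than of the 166 RP-6306 UMIs, which by itself raises the ratio. The value of 3.09 rests on few vehicle UMIs and is not read as a larger difference. At most 98 cells of 1 library stand behind each of these gates, and no replicate shows how much such gates vary between tumours.

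**Figure D4:**
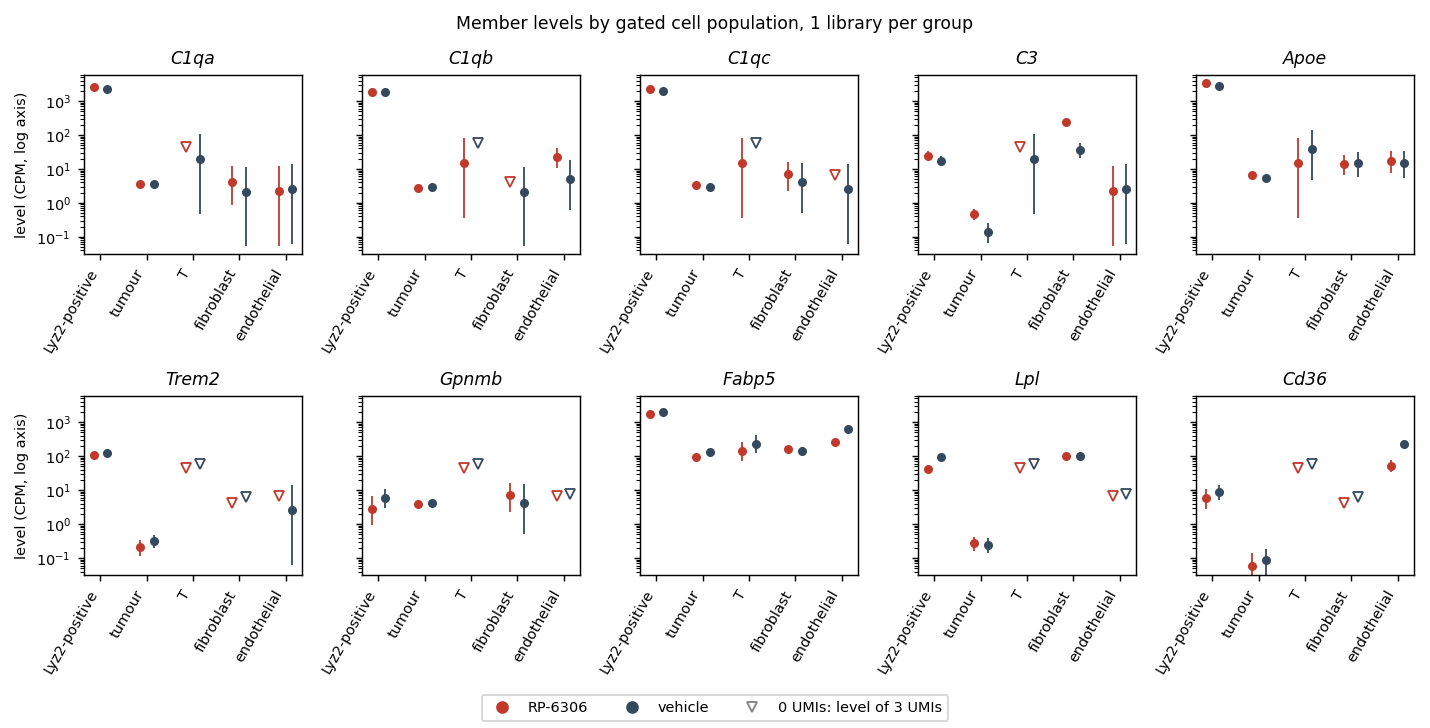
Each panel gives the level of 1 member in CPM on a log axis in Lyz2-positive, tumour-, T-, fibroblast- and endothelial-gated cells, RP-6306 (red) left of vehicle (dark blue), with 95% Poisson intervals; open triangles mark gates with 0 UMIs at the level that 3 UMIs would give. C1q, Apoe and Trem2 peak in Lyz2-positive cells, C3 in fibroblast-gated and Cd36 in endothelial-gated cells, and Gpnmb stays low in every gate.

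Members were then read in tumour-gated cells (at least 10 keratin UMIs and at most 2 of Lyz2, with 5048 and 5086 cells and median depths of 12645 and 12334 UMIs) as a check for free RNA. The percentages below are ratios of CPM. Tumour-gated cells are deeper than Lyz2-positive cells, so these percentages do not give the amount of RNA per droplet. C1qa, C1qb and C1qc stood there at 0.145%, 0.156% and 0.155% of their Lyz2-positive level in the RP-6306 library and at 0.155%, 0.164% and 0.143% in the vehicle library. Lyz2, whose counts are limited by the gate, was at 0.150% and 0.142%. Apoe was at 0.188% and 0.194%, and Trem2 at 0.193% and 0.248%. The 8 other myeloid genes had medians of 0.197% and 0.227%. Without Cd68, the highest of them, they spanned 0.0584% (Adgre1, 3 UMIs) to 0.421% (Csf1r) in RP-6306 and 0.156% to 0.247% in vehicle. With this gate the interval of Apoe lay above that of summed C1q in both libraries. It was 0.171 to 0.207% against 0.140 to 0.164% in RP-6306, and 0.174 to 0.215% against 0.142 to 0.166% in vehicle. In tumour-gated cells with 0 Lyz2 UMIs the RP-6306 intervals overlapped (0.160 to 0.197% and 0.140 to 0.165%). The vehicle intervals there did not (0.172 to 0.216% and 0.139 to 0.165%). With 0 UMIs of Lyz2, Tyrobp, Fcer1g and Ptprc the RP-6306 intervals again overlapped (0.158 to 0.198% and 0.133 to 0.159%). The vehicle intervals again did not (0.165 to 0.211% and 0.130 to 0.157%). C1q UMIs were found in 12.7% of RP-6306 and 11.5% of vehicle tumour-gated cells, against 69.1% and 67.8% of Lyz2-positive cells at their lower depth, and 16.4% and 19.8% of the summed C1q UMIs lay in cells with 2 or more. The tumour-gated cell with the most C1q held 8 UMIs in RP-6306 and 16 in vehicle, and that with the most Apoe held 19 and 4. By single chain, 6.91 to 11.2% and 5.77 to 9.24% of UMIs lay in cells with 2 or more of that chain. The source of these UMIs was not tested, and no expression of C1q in tumour cells is read from them.

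The values of the other members in tumour-gated cells stood above the range of the myeloid genes without Cd68, though not all of their intervals did. Fabp5 was at 95.5 CPM in RP-6306 and 128 CPM in vehicle, which is 5.46% (5.23 to 5.70%) and 6.64% (6.39 to 6.90%) of its Lyz2-positive level. In the vehicle library 89.7% of these UMIs lay in cells with 2 or more, and the RP-6306 over vehicle ratio was 0.746 (0.722 to 0.769). Gpnmb had 278 UMIs in 217 RP-6306 and 287 UMIs in 250 vehicle tumour-gated cells, at 139% (58.7 to 430.2%) and 69.3% (38.2 to 140.4%) of its Lyz2-positive level. C3 was at 1.87% (1.15 to 3.004%) and 0.805% (0.354 to 1.67%), with 33 UMIs in RP-6306 and 10 in vehicle cells. Lpl (0.658% and 0.264%) and Cd36 (0.997% and 0.937%) rested on under 20 UMIs each. The intervals of Lpl in RP-6306 (0.375 to 1.10%) and vehicle (0.150 to 0.435%) reached into that range. So did that of Cd36 in RP-6306 (0.228 to 3.46%). Among the myeloid genes Cd68 stood apart, at 4.82% and 5.22%. No member with at least 50 UMIs in tumour-gated cells passed 1.5-fold between the libraries there (0 of 6, beside 2.92% of 14932 genes higher and 1.79% lower, 4.71% together).

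**Figure D5:**
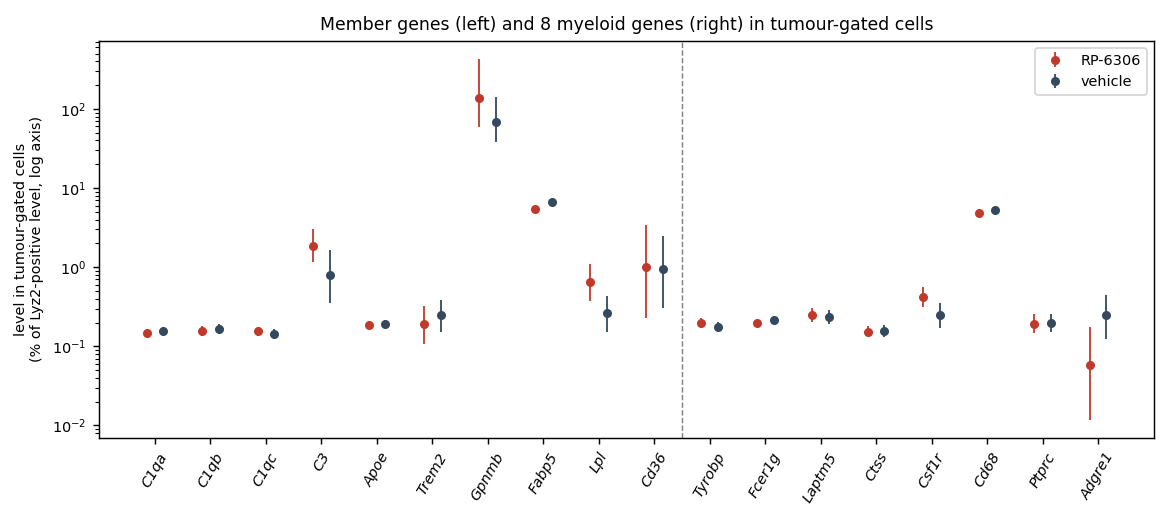
Points give the level in tumour-gated cells as a percentage of the level in Lyz2-positive cells (log axis) for the 10 members and, right of the dashed line, 8 other myeloid genes, RP-6306 (red) left of vehicle (dark blue), with 95% exact conditional intervals. C1qa, C1qb, C1qc, Apoe and Trem2 lie between 0.143% and 0.248%, near most myeloid genes, while Fabp5, Gpnmb and C3 lie above.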

How the data were processed

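The deposited matrices hold raw UMI counts per gene and barcode, whole numbers with no normalization. Per the file headers they were made with Cell Ranger 7.1.0. Per the submitters' processing notes the tool was Cell Ranger 2.1.1 with mm10, and this difference was not resolved. Libraries used a 10x Genomics 3' kit, per the labels. Other filters before deposit are not given in the sources used here. The RP-6306 library had 10512 barcodes and 106465655 UMIs and the vehicle library 9686 and 100815022.

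Barcodes needed 500 detected genes (188 and 132 removed) and at most 15% mitochondrial UMIs (16 and 14 removed). No doublet caller was run; the keratin limit removes tumour-macrophage doublets in part, and an alternative drops the deepest cells. Other gates, at most 2 Lyz2 and 3 keratin UMIs, needed 2 UMIs of Cd3d, Cd3e and Cd3g (T), 20 of Col1a1, Col1a2 and Col3a1 with 2 of Dcn, Lum, Pdgfra and Pdgfrb (fibroblast), or 3 of Pecam1, Cdh5, Kdr and Emcn (endothelial). Within Lyz2-positive cells, subsets were taken in order by S100a8, S100a9 and Retnlg (10 UMIs, neutrophil), Flt3, Xcr1, Clec9a, Ccr7 and Zbtb46 (2, dendritic), Ly6c2 and Plac8 (3, classical monocyte), and Ace, Treml4 and Spn (2, nonclassical). In the RP-6306 library 4668 and in the vehicle library 3924 retained cells fell in no gate. No gate used a member.

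UMIs were summed per gate and library and scaled to CPM. Intervals are exact Poisson (levels), Clopper-Pearson (shares) and exact conditional (ratios), without a pseudocount, at 95%. UMIs clump by cell, so intervals are too narrow. Nothing was tested, as cells are not replicates. All 10 members were named. Related genes were named at 50 CPM and 1.5-fold, otherwise the 3 most abundant of a list; genes of like pattern needed detection in 10% of cells and r of 0.2. Members, lists and gates were chosen with earlier results of these data known. Gene positions come from GENCODE M21 (GRCm38), where 52081 of 55357 identifiers and all 10 members matched. Scripts were tested on simulated data. Python 3.11.15, numpy 2.4.6, scipy 1.17.1 and pandas 2.3.3 were used, with edgeR 4.0.16 (R 4.3.3) for the TMM factor alone.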

Additional observations from a re-analysis of the deposited data

How the results depend on the processing

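Of 120 recomputed log2 ratios of single members in Lyz2-positive cells, 15 moved outside the counting interval of the reported value and 8 had the other sign. Gpnmb turned without its top cell (0.087), and Cd36 with at least 10 Lyz2 UMIs (0.14) and in the remainder alone (0.023), both resting on few UMIs. C1qb (0.02) turned with thinning to 1500 UMIs (-0.040), with the mean of per-cell CPM (-0.028) and with at least 1 Lyz2 UMI (-0.085). C1qc (0.14) turned with thinning (-0.0084), and C3 (0.50) in the remainder (-0.17). Lpl stayed lower in the RP-6306 library in all 12 settings (-1.37 to -0.89), as did Fabp5 (-0.30 to -0.11), and Apoe stayed higher (0.13 to 0.43). TMM and median-of-ratios factors shifted every log2 ratio by 0.03 and 0.02. Summed C1q (0.11) moved to -0.011 with cells thinned to 1500 UMIs, to -0.0070 with at least 1 Lyz2 UMI, to 0.15 with at least 10 and to 0.22 in the remainder. The median over members (0.08) moved to -0.024 with thinning and to -0.034 with at least 1 Lyz2 UMI. C3 passed 1.5-fold, making 1 member higher, with thinning (0.81), with at least 1 Lyz2 UMI (1.06) and without the cells above the 95th percentile of UMIs (0.60). The cause of these moves was not tested. Over all genes 504 of 6978 (7.22%) passed 1.5-fold at 50 UMIs. At 10 UMIs 1938 passed and at 1 UMI 7225. These lower limits admit more and sparser genes, so the counts alone do not give shares. The share of vehicle cells with C1qa that also had C1qb was 91.6% at 1500 UMIs and 97.0% without thinning, where cells are deeper. Settings for the subsets at 1500 UMIs and for the leading cells of C3, Cd36 and Fabp5 were added after seeing the data; among them Lpl in classical-monocyte-gated cells was -2.49, beside -0.33 without thinning, on 9 and 8 UMIs. No paired analysis was possible because each arm held 1 library. Depth limits Gpnmb, Cd36 and C3 in Lyz2-positive cells. Gpnmb and Cd36 had too few UMIs for a comparison. The log2 ratio of C3 ran from -0.17 to 1.06 with the setting, and the interval of its reported ratio (0.882 to 2.30) included 1, so no direction is read from it.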
